A study of Homo sapiens with 6 samples.

Results

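The genes described here encode the proteasome, the barrel-shaped protease that degrades ubiquitin-tagged proteins. They were chosen by symbol, as every row of the deposited count table whose name is PSM followed by a letter from A to G and a number. This gave 46 of 17042 genes, and all 46 passed the filter on low counts. PSMA8, the germ-cell α subunit, and PSMB11, the thymus catalytic subunit, are not analysed here.

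The study asked what the long noncoding RNA RP11-184M15.1 does in human macrophages. Messenger RNA was sequenced from THP-1, a cell line grown from a human monocytic leukaemia. The 3 knockdown (KD) libraries come from THP-1 macrophages transfected with small interfering RNA against RP11-184M15.1, with a lipid reagent, ahead of interleukin-4 (IL-4). The 3 control libraries are labelled wild type, and the labels do not say whether they received a control RNA. Both groups shared the same culture: PMA, a phorbol ester that makes THP-1 cells macrophage-like, at 100 ng/mL over 24 hours, and then IL-4 at 20 ng/mL over another 24 hours. The sequences of the small interfering RNAs are not printed here, the level of RP11-184M15.1 under that name is not analysed here, and nothing says that the replicates were separate cultures. Each p-value is therefore set against a spread among libraries that may be technical, within a single cell line. Totals were 12029360 to 14181343 counts in the KD libraries and 10450043 to 12113848 in the control libraries.

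The core particle is a stack of rings, with α subunits (PSMA) outside and β subunits (PSMB) inside, where the proteolytic sites lie. A cap of ATPases (PSMC) and non-ATPase subunits (PSMD) recognises, unfolds and feeds in the substrate. In cells of the immune system and after interferon-γ, the catalytic subunits PSMB6, PSMB7 and PSMB5 are replaced by PSMB9, PSMB10 and PSMB8, and the PSME1–PSME2 activator is induced, which alters the peptides made for MHC class I. When proteasome activity falls short, the transcription factor NFE2L1 raises the subunit genes together through antioxidant response elements.

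The DNA words known for these 2 routes, interferon and NFE2L1, were looked up in the promoters. The RefSeq promoter table on GRCh38.p14, with windows of 300 bases that run from 250 before to 50 after an annotated start, held 40 of the 46 genes in 49 windows. PSMA7, PSMB1, PSMB6, PSMB7, PSMD4 and PSMG3 were not matched. The core of the interferon-stimulated response element, read here as GAAA, any 2 bases and GAAA again on either strand, stood in 7 of the 49 windows (14.3%), against 3.57% of all 35116 windows. In 5 of those 7 genes the match was the same full word, GAAAGCGAAA, which stood in 35 of all windows (0.0997%). That full word was picked as the commonest match after these promoters had been read, so its share is a description. The 5 genes are the immunoproteasome subunits PSMB8 and PSMB10, both PA28 activator subunits PSME1 and PSME2, and the assembly chaperone PSMG4. They are shown in the direction of transcription because these are the members known for their induction by interferon, with PSMG4 for comparison. Capitals mark the word, which reads as its reverse complement in PSMB8 and PSME1.
PSMB8 (chr6:32844017-32844076, minus strand): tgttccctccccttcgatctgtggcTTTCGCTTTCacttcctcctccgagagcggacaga
PSMB10 (chr16:67936837-67936896, minus strand): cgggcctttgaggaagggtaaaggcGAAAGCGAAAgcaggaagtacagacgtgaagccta
PSME1 (chr14:24136174-24136233, plus strand): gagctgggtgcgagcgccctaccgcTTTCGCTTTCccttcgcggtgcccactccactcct
PSME2 (chr14:24146604-24146663, minus strand): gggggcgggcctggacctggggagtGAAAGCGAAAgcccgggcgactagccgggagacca
PSMG4 (chr6:3258889-3258948, plus strand): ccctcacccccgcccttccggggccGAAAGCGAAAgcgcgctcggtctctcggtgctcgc
Counted from the annotated start as 0, the word begins at -4 in PSMB8, -21 in PSMB10, 5 in PSME1, -28 in PSME2 and -33 in PSMG4. PSMB9, the remaining immunoproteasome subunit, had no match in its window. PSMB4 and PSMA4 held the element with other bases in its middle.

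The core of the antioxidant response element, TGACNNNGC on either strand, stood in 15 of the 49 windows (30.6%), against 13.3% of all windows. The lowest-numbered carrier with its match before the start is printed for each of 4 parts of the particle, since NFE2L1 is known to act on core and cap alike. Capitals mark the word, which is the reverse complement in PSMC5, and the first of 2 matches is shown for PSMD3.
PSMA4, α ring (chr15:78540635-78540693, plus strand): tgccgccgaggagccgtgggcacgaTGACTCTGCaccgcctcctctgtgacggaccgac
PSMB3, β ring (chr17:38752612-38752670, plus strand): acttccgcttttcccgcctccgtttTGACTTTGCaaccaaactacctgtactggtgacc
PSMC5, ATPase (chr17:63827639-63827697, plus strand): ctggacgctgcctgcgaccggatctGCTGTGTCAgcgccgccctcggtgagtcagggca
PSMD3, lid (chr17:39980745-39980803, plus strand): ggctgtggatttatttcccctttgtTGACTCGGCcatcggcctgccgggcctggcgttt
A match describes the letters only and does not show that a factor binds there.

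All 46 genes were expressed. Per coding length, their levels differed with their place in the particle. Levels were compared between genes as CPM (counts relative to library size, scaled by edgeR's TMM factors) per kilobase of coding sequence, averaged over the 6 libraries. The α ring spanned 111 (PSMA2) to 288 (PSMA6), with a median of 173, and the structural β subunits spanned 157 (PSMB2) to 255 (PSMB4), with a median of 179. The cap lay lower, with a median of 77.3 for the ATPases (56.3 for PSMC4 to 101 for PSMC2) and 77.8 for the lid (50.1 for PSMD6 to 141 for PSMD8). PSMD4, the ubiquitin receptor of the base, stood at 192, above the scaffold subunits PSMD2 (91.2) and PSMD1 (54.1). Among the activators, PSME3, PSME1 and PSME2 lay together around the activator median of 178, and PSME4, which encodes the large nuclear activator PA200, stood at 20.0.

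The genes for factors that build the particle were among the lower ones, as was the constitutive catalytic subunit PSMB6 at 40.6. The base chaperones PSMD5, PSMD9 and PSMD10 spanned 25.6 to 32.1 CPM per kilobase, and the core chaperones PSMG1 to PSMG4 spanned 9.0 to 51.5. PSMG4 was lowest of all 46 genes, by coding length and by transcript length. Its level was 2.84, 3.16 and 3.86 CPM in the KD libraries and 2.65, 4.44 and 2.98 CPM in the control libraries, so the groups overlapped. PSMA6 was highest by coding length and second to PSMB4 by the length of the principal annotated transcript. The order of genes with long untranslated ends depends on that choice. PSMA4 moved from rank 13 to rank 35, PSMA5 from 12 to 32 and PSMB2 from 14 to 30. By transcript length they stood at 29.8, 33.5 and 35.1 CPM per kilobase. These values lay within the span of the lid genes, from 15.6 (PSMD12) to 95.1 (PSMD8).

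**Figure D1:**
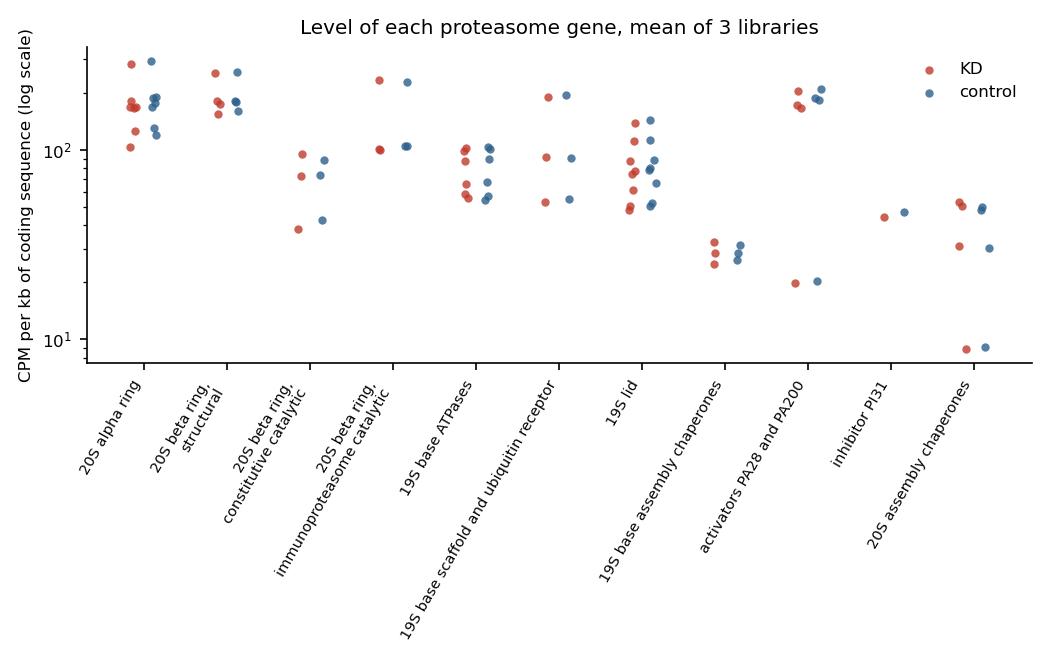
Mean level of each proteasome gene over 3 libraries, in CPM per kilobase of coding sequence on a log axis, by place in the particle, for KD (red) and control (blue). The α ring and structural β subunits lie among the highest, PSMG4 lies lowest at 9.0, and the paired columns of points nearly coincide.

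No proteasome gene differed between KD and control past the threshold, an edgeR quasi-likelihood p adjusted over all genes of under 0.05. Of the 46 genes tested, 0 were higher and 0 were lower, where 2.83% of the 13405 genes tested passed (1.22% higher and 1.61% lower). At an unadjusted p under 0.05 there were 6 lower in KD, where 8.21% of all genes were lower, and 0 higher, where 6.89% were. DESeq2 and limma-voom gave 3 and 6 at that level and also 0 after adjustment. In bulk RNA, fewer cells of a type and less RNA per cell cannot be told apart. The log2 fold changes ran from -0.21 (PSMA2) to 0.11 (PSMB5), with a median of -0.039, against a median of -0.002 over all genes tested. Values lay below 0 in 36 of 46 genes (78.3%), against 50.6% of all genes, and within 0.1 of 0 in 39 of 46 (84.8%), against 52.5%. The median standard error (SE) of the log2 fold change was 0.058 for the 46 genes and 0.091 over all genes. The shares within 0.1 of 0 are therefore not on an equal footing.

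For most of the 46 genes, the interval around the fold change was narrow. The 95% interval of the log2 fold change lay wholly within 1.25-fold in either direction for 44 of the 46 genes (95.7%), against 53.5% of all genes, many of which have fewer counts. The exceptions were PSMA2 and PSMG4, whose intervals ran from -0.33 to -0.09 and from -0.54 to 0.45. All 46 intervals lay within 1.5-fold. Each interval was set for its own gene, not jointly over the 46. It rests on how far these libraries differ from each other, so it does not limit the effect of the knockdown in separate cultures.

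**Figure D2:**
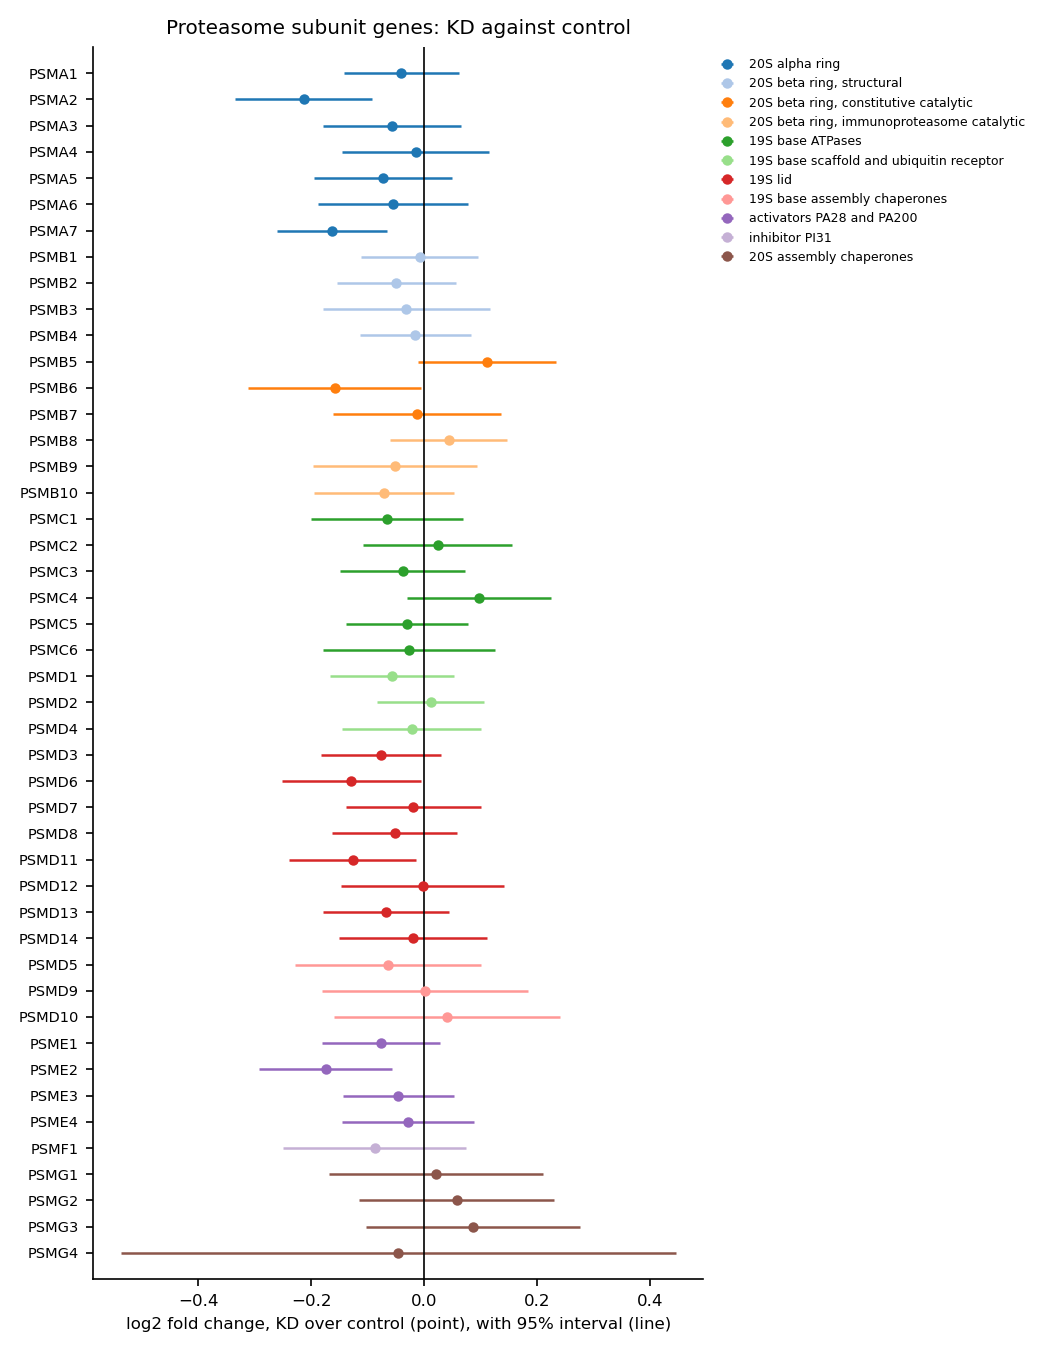
Log2 fold change of each proteasome gene, KD over control (point), with its 95% interval from edgeR (line), coloured by place in the particle. Most points lie within 0.1 of 0, PSMA2 lies lowest at -0.21, and the interval of PSMG4 is the widest.

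In the α ring, which gates the entry to the chamber, all 7 fold changes lay below 0 (median -0.057), where 50.6% of all genes did. PSMA2 had the smallest p of the 46 genes, with 72.4, 72.5 and 71.9 CPM in the KD libraries, against 89.4, 84.3 and 77.8 CPM in the control libraries. The groups did not overlap, the KD libraries lay within 1 CPM of each other and the controls were spread (log2 fold change -0.21 ± 0.06 SE, edgeR adjusted p = 0.0592). PSMA7 had 124, 127 and 127 CPM in the KD libraries and 145, 141 and 138 CPM in the control libraries. All 3 KD libraries lay below the controls (log2 fold change -0.16 ± 0.05 SE, edgeR adjusted p = 0.0729). PSMA6 had 212, 207 and 206 CPM in the KD libraries and 241, 214 and 193 CPM in the control libraries. The controls of PSMA6 enclosed all 3 KD libraries, and its log2 fold change was -0.05, or 0.0291 without control replicate 1. Without control replicate 3, PSMA2 passed the threshold (log2 fold change -0.26, edgeR adjusted p = 0.0166). Without control replicate 1, its log2 fold change shrank to -0.166 (edgeR adjusted p = 0.104). With a KD library left out, its edgeR adjusted p was 0.176 to 0.213.

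Among the β subunits, the structural PSMB1 to PSMB4 had log2 fold changes from -0.05 to -0.01. The catalytic sites gave no common direction. PSMB6, the constitutive caspase-like subunit, had 27.1, 27.6 and 27.9 CPM in the KD libraries and 29.2, 32.3 and 30.7 CPM in the control libraries. These groups did not overlap (log2 fold change -0.16 ± 0.07 SE, edgeR adjusted p = 0.311). PSMB5, the constitutive chymotrypsin-like subunit and the main target of the drug bortezomib, had 78.5, 73.3 and 73.6 CPM in the KD libraries and 73.8, 66.4 and 68.5 CPM in the control libraries. Here control replicate 1 overlapped the KD libraries, and the log2 fold change was the highest of the 46 genes (0.11 ± 0.06 SE, edgeR adjusted p = 0.387). PSMB7, the constitutive trypsin-like subunit, had 62.8, 59.4 and 59.4 CPM in the KD libraries and 66.9, 62.0 and 54.2 CPM in the control libraries, which enclosed the KD values.

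The immunoproteasome subunits showed no difference past the threshold either. PSMB8, which takes the place of PSMB5, had 195, 199 and 189 CPM in the KD libraries and 196, 191 and 177 CPM in the control libraries. Its log2 fold change was 0.04, with a 95% interval from -0.06 to 0.15. PSMB9, which takes the place of PSMB6, had 64.7, 71.4 and 63.9 CPM in the KD libraries and 72.3, 72.9 and 62.2 CPM in the control libraries (log2 fold change -0.05, 95% interval -0.20 to 0.09). PSMB10, which takes the place of PSMB7, had 79.5, 87.3 and 78.1 CPM in the KD libraries and 87.7, 88.7 and 81.0 CPM in the control libraries (log2 fold change -0.07, 95% interval -0.20 to 0.05). The groups overlapped for all 3 genes. The size of these differences rested on single libraries, although none passed with any library left out. The log2 fold change of PSMB9 ran from -0.118 without control replicate 3 to -0.008 without control replicate 2, that of PSMB8 from 0.00583 without control replicate 3 to 0.0739 without control replicate 1, and that of PSMB10 from -0.124 without KD replicate 2 to -0.0407 without KD replicate 3.

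In both groups the immunoproteasome transcript was the more abundant of each catalytic pair. Per kilobase of coding sequence, PSMB9 made up 72.2%, 73.9% and 71.4% of the summed level of PSMB9 and PSMB6 in the KD libraries, and 73.0%, 71.1% and 68.8% in the control libraries. PSMB8 made up 71.1% ± 0.92 of its pair with PSMB5 in KD and 72.0% ± 1.09 in control (SD, n = 3 each). PSMB10 made up 57.7% ± 1.88 of its pair with PSMB7 in KD and 58.9% ± 1.63 in control (SD, n = 3 each). In each pair the KD and control libraries overlapped. By transcript length the shares over the 6 libraries were 71.7% for PSMB9, 75.3% for PSMB8 and 52.6% for PSMB10. These are shares of RNA, and how much of each subunit is built into particles was not measured. PSMB8 and PSMB9 lie side by side on chromosome 6 on opposite strands, and 139 bases of their annotated exons overlap.

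**Figure D3:**
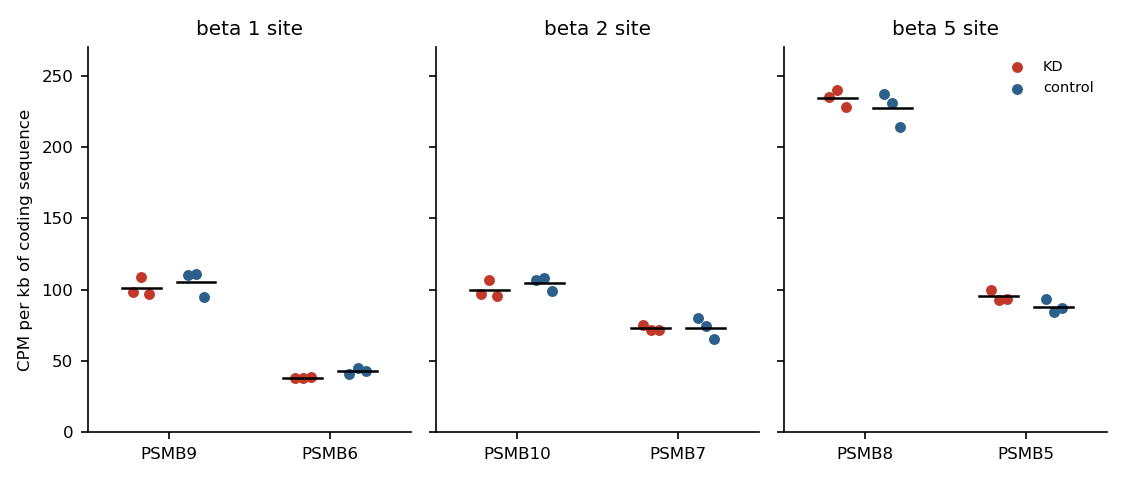
Level of the catalytic subunit genes in each library (points) with the group mean (bar), in CPM per kilobase of coding sequence, for KD (red) and control (blue). In each panel the immunoproteasome gene stands on the left and its constitutive counterpart on the right, and PSMB8, PSMB9 and PSMB10 lie above their counterparts in every library.

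In the cap, the 6 ATPases PSMC1 to PSMC6, which unfold the substrate, had log2 fold changes from -0.07 to 0.10 and summed to 598 ± 6.93 CPM in KD and 604 ± 37.4 CPM in control (SD, n = 3 each). PSMC4 had the highest fold change among them, with 73.0 ± 4.16 CPM in KD and 68.3 ± 3.57 CPM in control (SD, n = 3 each, log2 fold change 0.10, edgeR adjusted p = 0.489). The scaffold subunits PSMD1 and PSMD2 and the receptor PSMD4 had log2 fold changes between -0.06 and 0.01. All 8 lid genes had fold changes below 0 (median -0.060), where 50.6% of all genes did, and none passed. Without control replicate 1, 25 of the 46 members lay below 0, and the lid was not counted apart. The lid holds PSMD14, the deubiquitinase that strips ubiquitin from the substrate as it enters, which had 80.8 ± 4.16 CPM in KD and 81.8 ± 5.95 CPM in control (SD, n = 3 each).

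PSMD11 and PSMD6 were the lid genes with the smallest p. PSMD11, a scaffold subunit that has been tied to proteasome assembly in stem cells, had 78.0, 81.4 and 74.2 CPM in the KD libraries and 85.8, 83.5 and 85.9 CPM in the control libraries (log2 fold change -0.13 ± 0.05 SE, edgeR adjusted p = 0.259). PSMD6 had 58.0, 54.9 and 54.8 CPM in the KD libraries and 62.2, 62.9 and 58.1 CPM in the control libraries (log2 fold change -0.13 ± 0.06 SE, edgeR adjusted p = 0.30). Neither gene's groups overlapped, although KD replicate 1 and control replicate 3 of PSMD6 nearly met.

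Of the activators, PSME1 and PSME2 form the PA28 ring that interferon-γ induces, PSME3 the nuclear PA28γ and PSME4 the large PA200. PSME2 had 123, 118 and 117 CPM in the KD libraries and 146, 133 and 126 CPM in the control libraries. The groups did not overlap (log2 fold change -0.17 ± 0.06 SE, edgeR adjusted p = 0.119), and without control replicate 3 the gene passed (log2 fold change -0.22, edgeR adjusted p = 0.035). Without control replicate 1, the log2 fold change of PSME2 shrank to -0.117 (edgeR adjusted p = 0.218). With a KD library left out, its edgeR adjusted p was 0.199 to 0.354. Its partner PSME1 had 127, 135 and 126 CPM in the KD libraries and 131, 139 and 140 CPM in the control libraries, with overlap (log2 fold change -0.08, edgeR adjusted p = 0.506). PSME3 and PSME4 had log2 fold changes of -0.05 and -0.03. The inhibitor PI31, encoded by PSMF1, had 35.9 ± 0.86 CPM in KD and 38.1 ± 3.83 CPM in control (SD, n = 3 each).

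The assembly chaperones had fold changes on either side of 0. PSMG1, PSMG2 and PSMG3 of the core had log2 fold changes from 0.02 to 0.09, and PSMG4 had -0.05 with the wide interval given above. The base chaperones PSMD5, PSMD9 and PSMD10 had -0.06, 0.001 and 0.04. Summed, the PSMG genes came to 89.4 ± 4.36 CPM in KD and 86.4 ± 5.79 CPM in control (SD, n = 3 each).

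**Figure D4:**
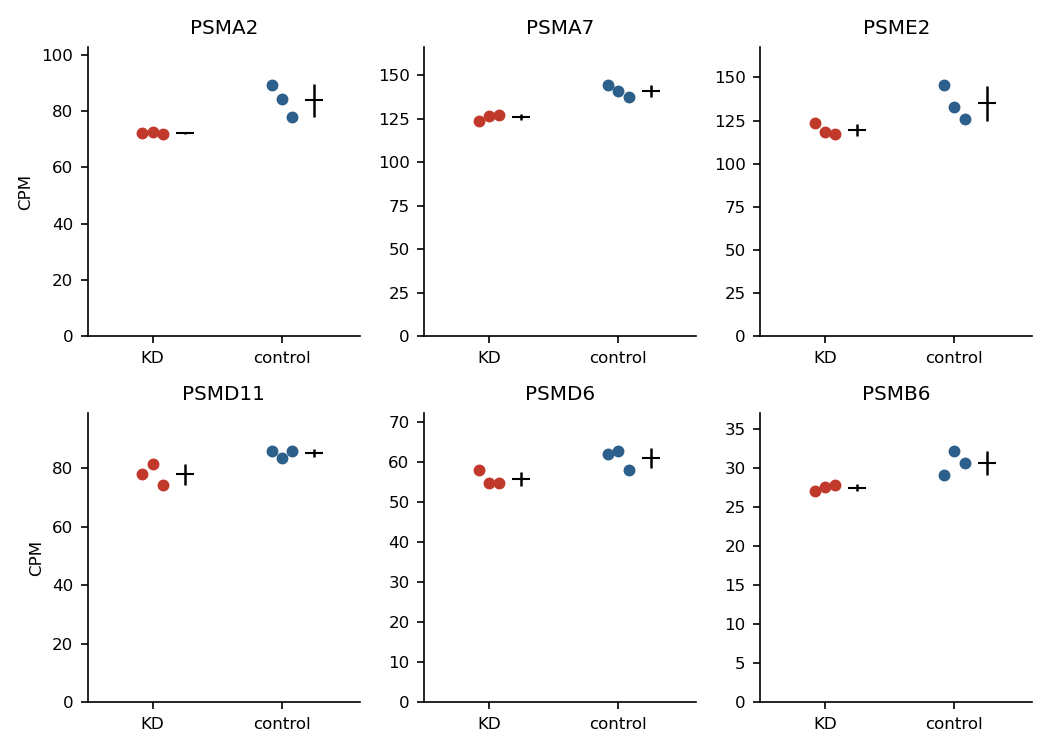
CPM of the 6 proteasome genes with the smallest unadjusted p, in each KD (red) and control (blue) library, with mean and SD beside the points (n = 3 each). In all 6 panels the KD points lie below the control points, and none of these genes passed the adjusted threshold.

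The 6 genes just described, PSMA2, PSMA7, PSME2, PSMD11, PSMD6 and PSMB6, were also the only members whose groups did not overlap. All 3 KD libraries lay below all controls in those 6 genes and above them in 0, where 10.4% of all genes tested lay below and 9.61% above. The count below is near this background, and the count above is under it. This lack of balance was not tested.

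Levels of the members differed among the control libraries. Control replicate 1 held the highest level of the 6 libraries for 23 of the 46 genes, and control replicate 3 held the lowest for 17. The share over all genes was not counted, so this is not shown to be particular to the proteasome genes. Control replicates 1 and 3 also differed most within a group over 13106 genes (chi-square over degrees of freedom, 6.79). The median deviation of the 46 genes from their own mean, in log2 CPM, was -0.009, -0.027 and -0.038 in the KD libraries and 0.079, 0.035 and -0.041 in the control libraries. Control replicate 3 thus lay below all 3 KD libraries, and the other controls lay above them. Summed over the 46 genes, levels were 4649, 4643 and 4545 CPM in the KD libraries and 4925, 4781 and 4524 CPM in the control libraries. In 41 of the 46 genes the range over the 3 controls, in log2 CPM, exceeded the size of the log2 fold change. A range of single libraries tends to exceed a difference between group means, so this count cannot weigh one against the other. It was not made over all genes.

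Other whole-library values also differed among the controls. Cytosolic ribosomal protein genes took 3.47%, 3.39% and 3.37% of all counts in the KD libraries and 3.76%, 3.62% and 3.33% in the control libraries, with the same order of controls as the proteasome genes. Mitochondrially encoded genes took 2.48%, 2.39% and 2.48% in KD and 2.31%, 2.75% and 3.01% in control. The opposite order held among the controls only, and an order of 3 libraries is weak evidence of a shared course. Their part in the proteasome values was not tested. The median log2 fold change of the 46 genes was -0.072 without control replicate 3 and -0.011 without control replicate 1, when 25 of the 46 genes lay below 0.

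**Figure D5:**
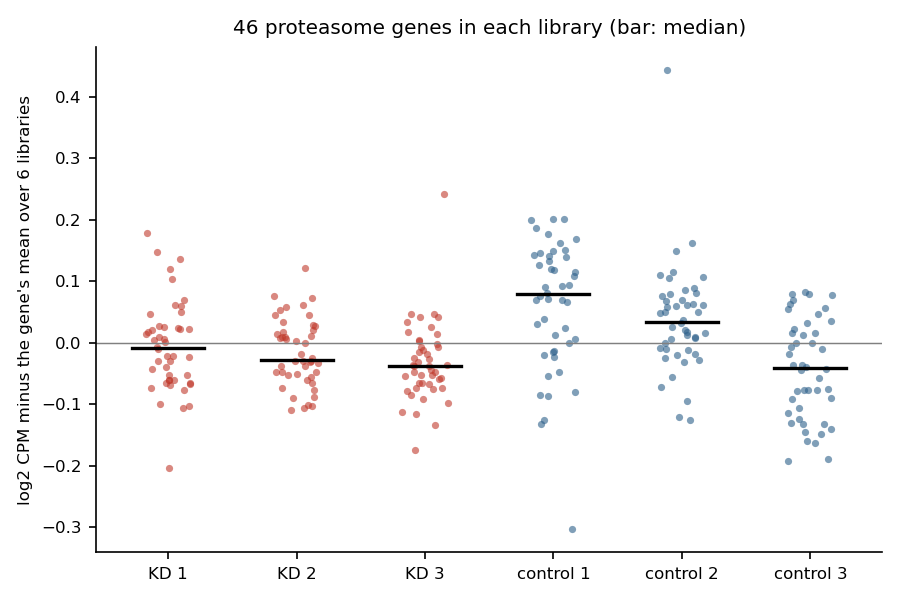
Each point is a proteasome gene, as its log2 CPM in a library minus its own mean over the 6 libraries, for KD (red) and control (blue). Black bars are medians. The 3 controls are spread from 0.079 to -0.041, and the KD medians lie between them.

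Some members have look-alike or overlapping genes, between which estimated counts are divided. Of the 31-base words in the principal transcript of PSMA2, 51.6% also occur in AC010132.3, a gene annotated as protein coding whose exons overlap those of PSMA2 by 781 bases on the same strand. AC010132.3 had 189, 256 and 192 counts in the KD libraries and 160, 215 and 162 in the control libraries. With both rows summed, PSMA2 had a log2 fold change of -0.18 ± 0.05 SE and an edgeR adjusted p of 0.107. PSMC1 shares 28.6% of its words with the pseudogene PSMC1P1, which had 0, 112 and 0 counts in the KD libraries and 0, 14 and 0 in the control libraries. The sum of PSMC1 and PSMC1P1 had a log2 fold change of -0.04, against -0.07 for PSMC1 alone. PSMA1 with AC018523.2 and PSMB10 with AC040162.1 overlap in the same way, and their sums had log2 fold changes of -0.04 and -0.06. PSMA6 shares 85.9% of its words with other annotated genes, and none of these genes has a row of counts here. How reads were divided among them cannot be read from the counts. The place of PSMA6 as the highest gene per coding length is therefore uncertain. PSMD9 (40.2%), PSMD4 (39.2%), PSMC6 (33.4%) and PSME2 (24.5%) also share words with other genes. For PSMD4, PSMC6 and PSME2, none of those genes has a row of counts either.

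The annotation places the 46 genes on 17 chromosomes, 7 each on chromosomes 14 and 17. For 16 of them, exons overlap those of a gene in the table on the opposite strand, and the sources used here do not give the counting's use of strand. The largest such overlap is that of PSMC1 with NRDE2, over 4671 bases.

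The other genes of the pathway had fold changes of like size. Of 36 genes, all in the table, 0 were higher and 0 lower past the threshold, where 2.83% of all genes tested passed, and the median log2 fold change was -0.006. At an unadjusted p under 0.05 there were 7. POMP, SYVN1, UBQLN4 and NLRC5 were the 4 of 36 above 0, where 6.89% of all genes were, and SQSTM1, RAD23B and AKIRIN2, the nuclear import factor of the proteasome, were the 3 below 0, where 8.21% were. These counts are near the background. The smallest p was that of SQSTM1, the autophagy receptor p62, with 844, 891 and 832 CPM in the KD libraries and 998, 962 and 912 CPM in the control libraries, without overlap (log2 fold change -0.16 ± 0.05 SE, edgeR adjusted p = 0.0825). SQSTM1 and AKIRIN2 were picked after their values were seen. NFE2L1, the activator of the subunit genes, had 273, 270 and 273 CPM in the KD libraries and 268, 281 and 261 CPM in the control libraries. Its groups overlapped, with a log2 fold change of 0.01 and a 95% interval from -0.08 to 0.10. These are RNA levels, and the activity of the NFE2L1 protein was not measured. The 15 members with TGACNNNGC in the promoter had a median log2 fold change of -0.031, near the -0.039 of all 46 members. Those 46 include the 15, and only 40 of them had a promoter window. POMP, the chaperone that matures the core, had 85.1, 82.2 and 84.9 CPM in the KD libraries and 81.2, 78.4 and 69.9 CPM in the control libraries. All 3 KD libraries of POMP lay above the controls (log2 fold change 0.14 ± 0.06 SE, edgeR adjusted p = 0.284).

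Regulators and partners of the immunoproteasome showed no difference past the threshold. IRF1, the interferon-induced factor that switches on PSMB8 and PSMB9, had 52.6, 52.1 and 55.9 CPM in the KD libraries and 57.4, 57.4 and 51.6 CPM in the control libraries (log2 fold change -0.05, edgeR adjusted p = 0.759). TAP1, the peptide transporter gene next to PSMB9, had 457, 497 and 484 CPM in the KD libraries and 475, 449 and 448 CPM in the control libraries (log2 fold change 0.07, edgeR adjusted p = 0.539). For both the groups overlapped. NLRC5, the transactivator of MHC class I genes, had the largest fold change of the 6 genes in this list and was picked after its values were seen. It had 61.7, 64.9 and 62.0 CPM in the KD libraries and 52.0, 60.7 and 56.1 CPM in the control libraries. All 3 KD libraries of NLRC5 lay above the controls (log2 fold change 0.16 ± 0.06 SE, unadjusted p = 0.0237 and adjusted p = 0.23 in edgeR). TAP2 and TAPBP had log2 fold changes of 0.06 and -0.04, with overlap. The 7 members with the interferon element in the promoter had a median log2 fold change of -0.046, near the -0.039 of all 46 members. Here too the 46 include the carriers, and only 40 of them had a promoter window.

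Transcripts of the listed macrophage markers were present, and the series holds no undifferentiated THP-1 library to compare them with. All 8 macrophage markers were in the table, summing to 4574, 4718 and 4510 CPM in the KD libraries and 4749, 4827 and 4553 CPM in the control libraries, with MRC1 lowest at 2.44 CPM in KD and 1.76 CPM in control. Within that list LYZ was lower in KD and CD14 higher past the threshold, with log2 fold changes of -0.40 and 0.34 (edgeR adjusted p = 0.000928 and 0.0030). Markers of T and NK cells, B cells, and epithelial cells and fibroblasts summed to between 0.99 and 4.60 CPM in every library, and CD3D, CD3E, CD2, MS4A1, EPCAM and KRT19 were not analysed here.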

How the data were processed

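PolyA RNA-seq libraries, 3 KD and 3 control, were grouped by title. The submitters' processing notes name Salmon 0.11.2, DESeq2 and hg38 without their roles. The authors deposited expected counts by gene symbol, all whole, for 17042 genes with a lowest row sum of 10, and the sources used here do not give the rounding. Counts that Salmon assigns split reads between genes that share sequence. Intervals cover the spread between libraries.

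The whole table was fitted with edgeR 4.0.16 by quasi-likelihood (filterByExpr, TMM factors, group only, two-sided, Benjamini-Hochberg adjustment over 13405 genes, threshold 0.05). The SE was approximated from the fold change and the F statistic, and the 95% interval uses the test's degrees of freedom. Positions, coding lengths and overlaps came from GENCODE 29 (GRCh38), which matched all 46 symbols. Values were given in every library for the 6 genes with the smallest p, the catalytic pairs, and the genes highest and lowest per length, and for NFE2L1, POMP, IRF1 and TAP1. The members and lists were chosen with earlier results of these data known. Libraries of a group differed by more than sampling noise (chi-square over degrees of freedom, 1.91 to 6.79). Alternatives were DESeq2 1.42.0, limma-voom (limma 3.58.1), other scalings and filters, a replicate block, omission of each library and, added after seeing the data, summing rows that share sequence. The test was first run on simulated data. Other tools were R 4.3.3, Python 3.11.15, pandas 2.3.3 and matplotlib 3.10.9.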

Additional observations from a re-analysis of the deposited data

How the results depend on the processing

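The count of 0 proteasome genes higher in KD held under all 14 alternatives, and that of 0 lower held under 12. The exceptions were 1 lower gene (PSMA2) with the replicate block (edgeR adjusted p = 0.0449) and 2 (PSMA2 and PSME2) without control replicate 3, so leaving out a library gave 0 to 2. Over all genes the 379 calls were 488 with the replicate block, 345 with DESeq2 and 330 with no filter, and 139 to 542 with a library left out (194, 139 and 156 without KD replicates 1, 2 and 3, and 165 without control replicate 2). Same-numbered libraries deviated together with correlations of 0.046, 0.10 and 0.083, and each library correlated best with its own number, a hint from the data and not the design. Deviations were centred within each group of 3, which ties the correlations to each other. That each was best with its own number therefore adds little to these small values. The block changed no other call among the members. The median log2 fold change of the members ran from -0.072 to -0.011. Among the named genes, fold changes near 0 changed sign with a library left out: PSMB7 to 0.000587, 0.000378, 0.0549 and 0.0011 without KD replicates 2 and 3 and control replicates 1 and 2 (lowest -0.0868), PSMA6 to 0.0291 without control replicate 1 (lowest -0.125), and PSMG4 to 0.0454 and 0.222 without KD replicate 1 and control replicate 2 (lowest -0.191). The cause of these moves was not tested. DESeq2 gave PSMG4 no adjusted p. Depth limits PSMG4, at 28 to 53 counts per library.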
